A study of Sus scrofa with 23 samples.

Results

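The immediate early genes examined here were FOS, JUN, EGR1, ATF3, NR4A1, NR4A3, KLF2, KLF4, GADD45G and MYC, measured in the back muscle Longissimus of 23 pigs that weighed 115 kg. The members were the non-control probes that carry one of these symbols as gene name or in parentheses in the description. That rule found 17 probes of 5 of the 10 genes, out of 43603 non-control probes on the array. Another 8 probes were added because RefSeq's symbols and synonyms or the probe's description name the gene. These were 2 probes called C-JUN for JUN, 4 called NOR-1 for NR4A3, and 1 each for EGR1 and ATF3, so that 9 of the 10 genes had a probe. No probe was matched to NR4A1.

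The pigs came from 2 lines selected on residual feed intake (RFI), the feed an animal eats beyond what its growth and maintenance predict. The groups were 7 RFIneg pigs (low RFI, fed ad libitum), 8 RFIplR pigs (high RFI, restricted to the feeding level of the low line) and 8 RFIpl pigs (high RFI, fed ad libitum). Each pig had its own single-colour Agilent array, and the labels name no sex, age or litter. Restriction compares RFIplR with RFIpl within the high line, and RFIneg is set against the high line both at free feeding (RFIpl) and at equal feeding (RFIplR).

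Immediate early genes are switched on within minutes of a stimulus from transcription factors that are already in the cell, such as SRF with its ELK partners and CREB, and their messages are short-lived. In skeletal muscle they are known to respond to contraction, stretch, injury and handling. FOS and JUN pair to form the AP-1 transcription factor, EGR1 and the KLF proteins are zinc finger factors, NR4A1 and NR4A3 are orphan nuclear receptors, and ATF3 is a stress-induced partner of JUN. MYC drives growth genes, and GADD45G, the member that is not a transcription factor, is a stress-induced activator of a kinase upstream of p38 and JNK.

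A level is the log2 of the spot signal minus the 75th percentile of that array, so that 0 is the 75th percentile and a difference of 1 is a doubling. Of the 25 member probes 23 were kept, since in at least 1 group their signal was called well above background on 6 or more arrays. The kept probes numbered 27797 in all. The probes of EGR1 and ATF3 were not kept. No member spot was saturated on any array. The brightest kept probe of a gene, by its mean over all arrays, represents it below, and the others are set beside it.

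The array measures each gene through 60-base oligonucleotides. One oligonucleotide per gene is shown. For JUN and GADD45G it is the brightest kept probe, from which the levels and spreads below were read. For FOS, NR4A3, KLF2, KLF4 and MYC it is another probe of the gene. The sequences are copied from the scanner files, 5′ to 3′, with no base singled out. Positions are those of the gene in RefSeq's annotation of Sscrofa11.1, and the positions of the oligonucleotides themselves are not used here.

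FOS (chr7:98449508-98451971), probe A_72_P441284: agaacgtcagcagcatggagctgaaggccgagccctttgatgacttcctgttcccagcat
JUN (chr6:153686425-153687635), probe A_72_P178031: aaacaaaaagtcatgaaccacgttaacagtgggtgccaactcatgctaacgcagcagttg
NR4A3 (chr1:241569867-241611735), probe A_72_P413628: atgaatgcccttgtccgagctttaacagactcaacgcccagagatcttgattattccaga
KLF2 (chr2:61270733-61273037), probe A_72_P619984: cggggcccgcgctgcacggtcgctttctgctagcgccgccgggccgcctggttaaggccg
KLF4 (chr1:248604817-248609574), probe A_72_P303164: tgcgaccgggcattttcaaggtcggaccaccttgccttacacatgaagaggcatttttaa
MYC (chr4:12455141-12460360), probe A_72_P557580: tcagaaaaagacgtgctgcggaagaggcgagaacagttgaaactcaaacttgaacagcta
GADD45G (chr14:1166000-1167538), probe A_72_P011276: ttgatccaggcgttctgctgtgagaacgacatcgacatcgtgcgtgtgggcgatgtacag

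FOS differed more between pigs of the same group than all but 7 of the 27797 kept probes. Its level ran from 1.43 through a median of 6.45 to 7.64 in RFIneg pigs, from 1.65 through 5.27 to 7.58 in RFIplR pigs, and from 0.77 through 5.92 to 7.42 in RFIpl pigs. The groups overlapped over nearly their whole range, and each held at least 1 pig with a low level. The pig with the most FOS signal had 117 times that of the pig with the least. The mean was 4.92 ± 2.61 in RFIneg pigs, 4.77 ± 2.16 in RFIplR pigs and 5.49 ± 2.11 in RFIpl pigs (SD, n = 7, 8 and 8). The SD within groups was 2.29 on the log2 scale, against a median of 0.30 over all kept probes.

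The 4 FOS probes followed one another closely over the pigs. Their deviations from the group means correlated at r = 0.993 to 0.998 over the 23 pigs, and they ranked 8, 9, 11 and 16 among all kept probes by SD within groups. Probes A_72_P205307 and A_72_P596714 share a run of 21 bases and are close to a repeat of each other. Probe A_72_P441284, whose sequence stands above, shares no run of 15 bases with them, and its level ran from -1.75 to 3.65 in RFIneg pigs, from -1.95 to 3.63 in RFIplR pigs and from -2.46 to 3.66 in RFIpl pigs.

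JUN, the partner of FOS in AP-1, ran from 5.57 through a median of 7.39 to 8.05 in RFIneg pigs, from 5.99 through 7.25 to 8.42 in RFIplR pigs, and from 5.86 through 7.37 to 8.15 in RFIpl pigs. Highest over lowest was 7.20-fold over the 23 pigs, and the groups overlapped. The SD within groups was 0.87, above that of 97.8% of kept probes. The second JUN probe, A_72_P569634, followed it at r = 0.98.

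**Figure D1:**
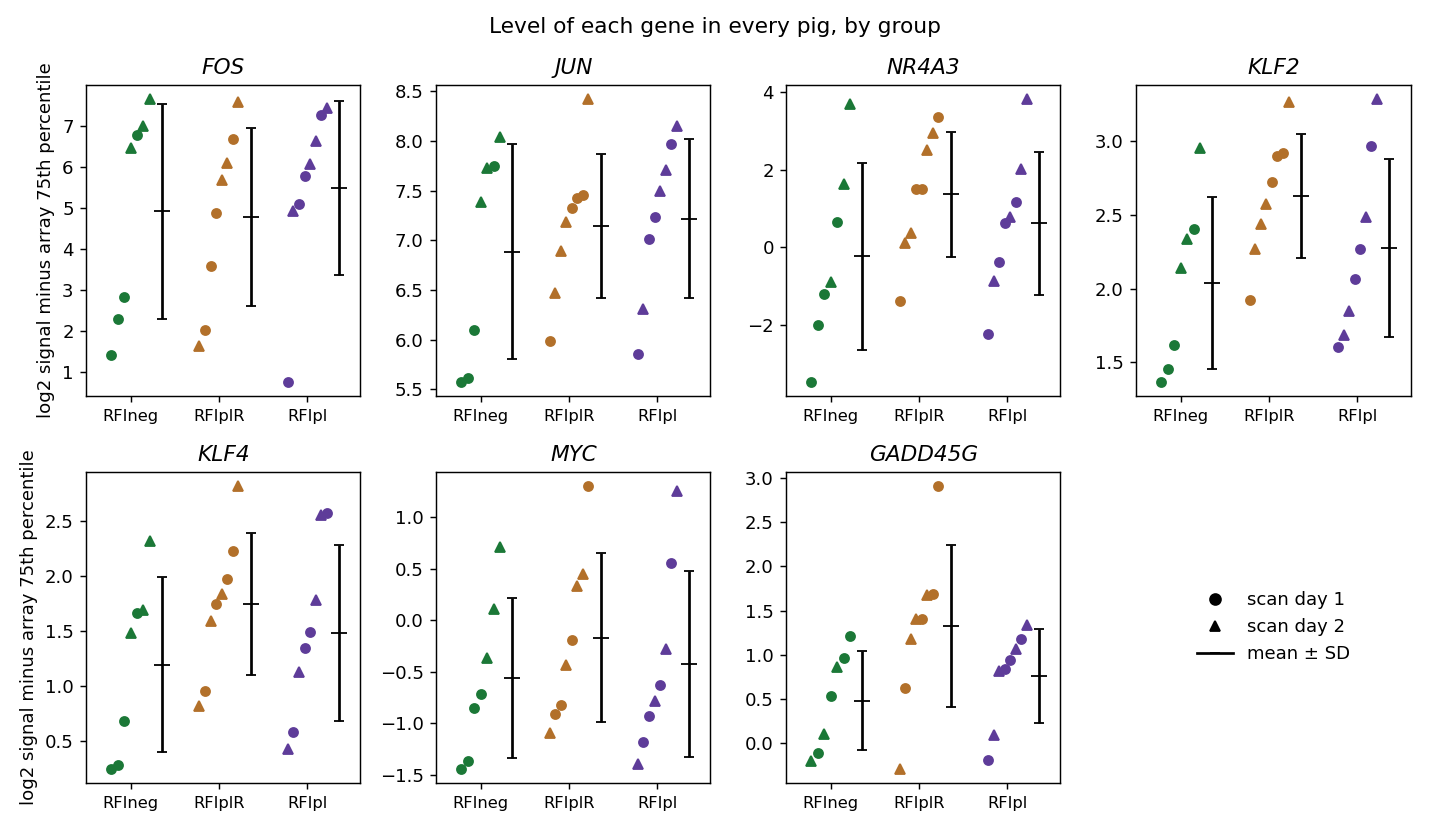
Level of 7 genes in every pig (y axis, log2 scale with each array's 75th percentile at 0), with the pigs of RFIneg, RFIplR and RFIpl side by side. Circles are arrays of scan day 1, triangles of scan day 2, and bars give mean ± SD. The 3 groups overlap for every gene, and FOS and NR4A3 span over 6 log2 units.

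NR4A3, an orphan nuclear receptor known to rise in muscle after exercise and beta-adrenergic stimulation, was the other widely spread gene. It ran from -3.48 through a median of -0.91 to 3.71 in RFIneg pigs, from -1.40 through 1.50 to 3.37 in RFIplR pigs, and from -2.23 through 0.71 to 3.83 in RFIpl pigs. The group ranges overlapped, with the lowest 2 pigs not in the same group. Highest over lowest was 158-fold, and the SD within groups was 1.96, rank 20 of all kept probes. The 4 probes correlated at r = 0.896 to 0.996.

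MYC ran from -1.44 through a median of -0.72 to 0.71 in RFIneg pigs, from -1.09 through -0.31 to 1.30 in RFIplR pigs, and from -1.40 through -0.71 to 1.25 in RFIpl pigs. Its SD within groups was 0.84, above that of 97.4% of kept probes, and its 3 probes correlated at r = 0.98 to 0.99. The groups overlapped.

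KLF4 ran from 0.25 through a median of 1.48 to 2.31 in RFIneg pigs, from 0.82 through 1.79 to 2.82 in RFIplR pigs, and from 0.43 through 1.42 to 2.56 in RFIpl pigs. Its SD within groups was 0.75, above that of 95.8% of kept probes. The 7 KLF4 probes correlated at r = 0.919 to 0.998, and A_72_P584261 and A_72_P584816 share a run of 35 bases. KLF2, a zinc finger factor best known from endothelium and resting T cells, ran from 1.37 through 2.14 to 2.96 in RFIneg pigs, from 1.92 through 2.65 to 3.27 in RFIplR pigs, and from 1.61 through 2.17 to 3.29 in RFIpl pigs. Its SD within groups was 0.54, above that of 86.6% of kept probes, the smallest of the 7 genes. The groups overlapped for both KLF genes.

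The 2 KLF2 probes differed in their order of pigs. Their deviations correlated at r = 0.31 over the 23 pigs. The SD within groups of the dimmer probe, A_72_P619984, was 0.33, above that of 56.2% of kept probes. Its sequence, shown above, is 76.7% G and C, against 38.3% in the brighter probe A_72_P441164. Whether base composition plays a part was not tested, and KLF2 results below rest on the brighter probe.

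GADD45G, measured by 1 probe, ran from -0.19 through a median of 0.54 to 1.21 in RFIneg pigs, from -0.29 through 1.40 to 2.91 in RFIplR pigs, and from -0.19 through 0.89 to 1.33 in RFIpl pigs. In RFIplR 1 pig stood 1.23 above the next highest level of any pig. The groups overlapped, and the SD within groups was 0.70, above that of 94.7% of kept probes.

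EGR1 was well above background in 3 of 7 RFIneg pigs, 1 of 8 RFIplR pigs and 3 of 8 RFIpl pigs. ATF3 was well above background in 4 of 7 RFIneg pigs, 4 of 8 RFIplR pigs and 4 of 8 RFIpl pigs. Neither was tested between groups. The measured ATF3 signal ran from -6.13 to -1.93 in RFIneg pigs, from -6.52 to -1.93 in RFIplR pigs and from -6.65 to -2.03 in RFIpl pigs, and levels of arrays on which it was not well above background have no order.

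**Figure D2:**
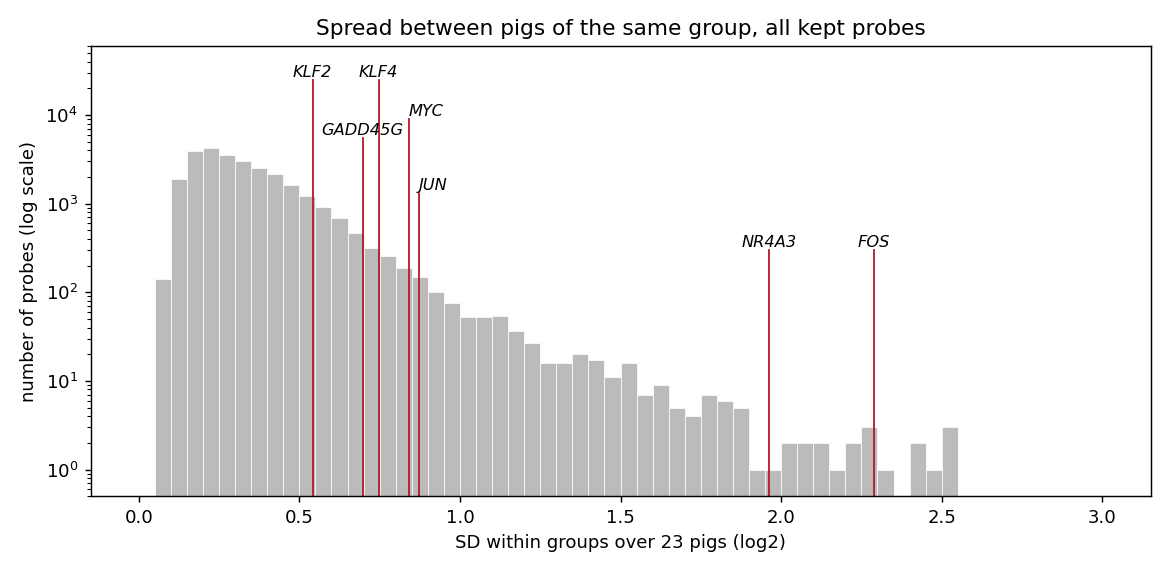
Number of kept probes (y axis, log scale) by SD within groups over 23 pigs (x axis, log2). Red lines mark the representative probe of each gene. FOS at 2.29 and NR4A3 at 1.96 lie in the far right tail, and KLF2 at 0.54 lies nearest the median of 0.30.

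No member probe differed between groups by limma's moderated test with Benjamini-Hochberg adjustment over all kept probes at 0.05. Between RFIneg and RFIpl 0 of 23 member probes were called, against 0.122% of all kept probes. There 0 of 23 reached an unadjusted p of 0.05, while 11.1% of all kept probes did. Between RFIplR and RFIpl 0 of 23 were called, against 0.0036% of all kept probes. Again 0 of 23 reached an unadjusted p of 0.05, while 9.76% of all kept probes did. Between RFIneg and RFIplR 0 of 23 were called, against 0.162% of all kept probes, and 2 reached an unadjusted p of 0.05, while 10.2% of all kept probes did. The F test over the 3 groups called 0 of 23 member probes and 0.137% of all kept probes. At these shares of calls a count of 0 among 23 probes says nothing particular about the members. The counts at an unadjusted p of 0.05 are a description, since the member probes share pigs and targets.

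The 2 probes under an unadjusted p of 0.05 were those of GADD45G and KLF2, both in RFIneg against RFIplR. GADD45G averaged 0.48 ± 0.56 in RFIneg pigs and 1.32 ± 0.92 in RFIplR pigs (SD, n = 7 and 8), a difference of -0.84 ± 0.34 (SE) with an adjusted p of 0.401. KLF2 averaged 2.04 ± 0.58 in RFIneg pigs and 2.63 ± 0.42 in RFIplR pigs (SD, n = 7 and 8), a difference of -0.59 ± 0.27 (SE) with an adjusted p of 0.456. The dimmer KLF2 probe gave a difference of 0.020 ± 0.17 (SE) in the same comparison. Both differences failed the adjustment. The KLF2 difference also moved with the processing. It was -0.0076 with normexp background correction of the mean signals, -0.31 with normexp on the negative controls and -0.28 as the mean of both probes, and with slide as a block its 95% interval ran from -1.16 to 0.029. It was -0.40 without the arrays of slide 3, and -0.16 on the second scan day and -0.91 on the first. The arrays of slide 3 had 41.6 to 58.8% of probes well above background, while all arrays ran from 41.6 to 79.0%.

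For the other 5 genes the 95% interval of the difference between RFIneg and RFIplR held 0. NR4A3 averaged -0.23 ± 2.41 in RFIneg pigs and 1.37 ± 1.61 in RFIplR pigs (SD, n = 7 and 8), a difference of -1.59 with a 95% interval from -3.56 to 0.37 and an adjusted p of 0.587. On the second scan day the NR4A3 difference was -0.0041 and on the first it was -2.75, and without the arrays of slide 3 it was -0.94. The difference was -0.55 (-1.30 to 0.20) for KLF4, which became -0.046 with normexp. It was -0.39 (-1.23 to 0.46) for MYC and 0.15 (-2.14 to 2.44) for FOS. JUN differed by -0.26 (-1.14 to 0.62), and its sign turned to 0.34 when the background was modelled with normexp on the mean signals.

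At free feeding RFIneg pigs differed from RFIpl pigs by -0.57 (-2.86 to 1.71) in FOS, where the values in parentheses are the 95% interval. The difference was -0.33 (-1.21 to 0.54) in JUN, -0.84 (-2.81 to 1.12) in NR4A3 and -0.24 (-0.79 to 0.31) in KLF2. It was -0.29 (-1.04 to 0.46) in KLF4, -0.14 (-0.98 to 0.71) in MYC and -0.28 (-0.98 to 0.43) in GADD45G. All 7 intervals held 0, and the interval of FOS allows a change of several fold in either direction.

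Feed restriction within the high line gave differences of -0.72 (-2.93 to 1.49) in FOS and -0.073 (-0.92 to 0.77) in JUN, RFIplR minus RFIpl. With normexp on the mean signals these became -1.57 and -0.90, and with normexp on the negative controls -0.99 and -0.63. NR4A3 differed by 0.75 (-1.15 to 2.64), with 0.043 on the second scan day and 1.45 on the first. MYC differed by 0.25 (-0.56 to 1.07) and GADD45G by 0.57 (-0.11 to 1.25), where GADD45G had an adjusted p of 0.608. KLF2 differed by 0.35 (-0.18 to 0.88) and KLF4 by 0.26 (-0.47 to 0.99), and both turned negative with normexp, to -0.38 and -0.35. The 7 KLF4 probes were split in sign in this comparison, from -0.068 to 0.28. The median over the 23 member probes was -0.38 for RFIneg minus RFIpl, 0.25 for RFIplR minus RFIpl and -0.49 for RFIneg minus RFIplR. Over all kept probes it was 0.025, 0.012 and 0.020 in the same order. These comparisons share their groups, and the member probes share pigs and targets, so the medians are a description.

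**Figure D3:**
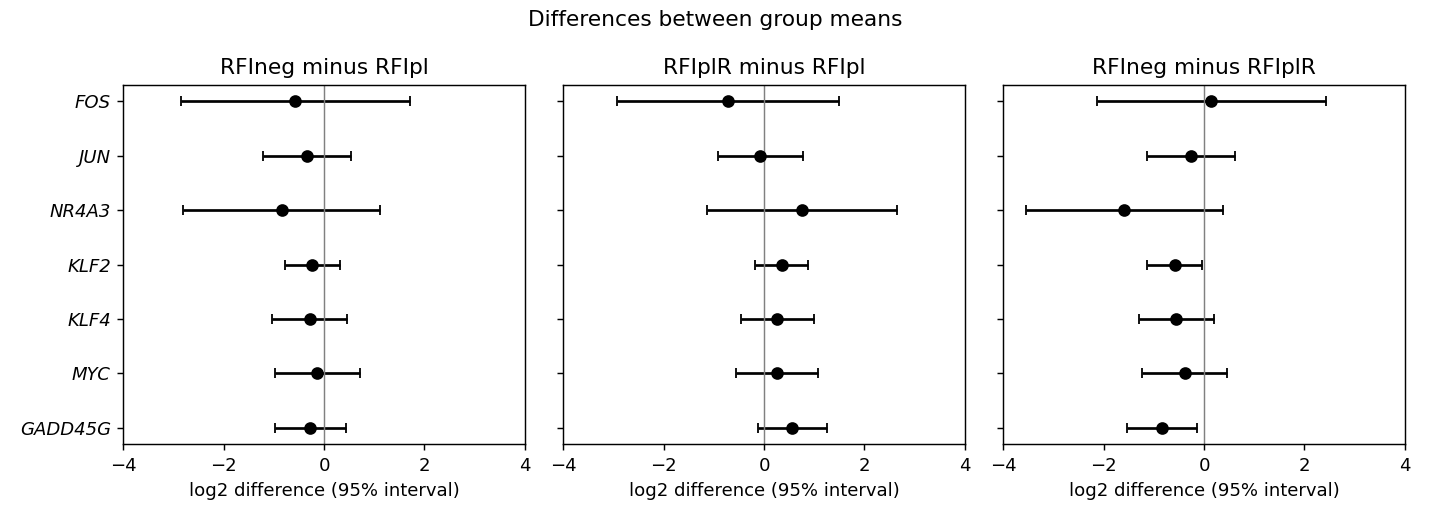
Differences between group means of the representative probes (x axis, log2) with 95% intervals from limma, for RFIneg minus RFIpl, RFIplR minus RFIpl and RFIneg minus RFIplR. The intervals of FOS and NR4A3 are the widest, and only those of KLF2 and GADD45G in RFIneg minus RFIplR leave out 0, before adjustment.

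The scan days given in the file headers held all 3 groups, with 4 arrays of each group among the 12 of the first day and 11 arrays on the second. FOS averaged 6.10 ± 1.70 on the second day and 4.12 ± 2.25 on the first (SD, n = 11 and 12), a difference of 1.98 with the groups in the model and an adjusted p of 0.141. NR4A3 differed by 1.56 between the days (adjusted p = 0.193) and JUN by 0.65 (adjusted p = 0.239), and the other genes by -0.30 to 0.45, with adjusted p of 0.449 or more. Scan day held 21.0% of the variance of FOS over the 23 pigs, slide 26.7% and group 2.15%. No slide was scanned on both days, so the share of slide includes that of scan day. The shares are not adjusted for the number of days, slides or groups, and a factor with more levels holds more by chance. The same model called 9.7% of all kept probes between the days, and 1 of the 23 member probes. That probe was the dimmer KLF2 probe A_72_P619984, with a difference of 0.49 (adjusted p = 0.00176). Scan day is the day of scanning only.

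The FOS differences of RFIneg from RFIpl and from RFIplR changed sign between the scan days. That of RFIplR from RFIpl did not. RFIneg minus RFIpl was 0.77 on the second day and -1.39 on the first, and RFIneg minus RFIplR was 1.78 on the second and -0.96 on the first. RFIplR minus RFIpl was -1.01 on the second and -0.43 on the first. None of the 21 interactions of group and day, 3 for each of 7 genes, passed the threshold in limma (lowest adjusted p = 0.99985).

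**Figure D4:**
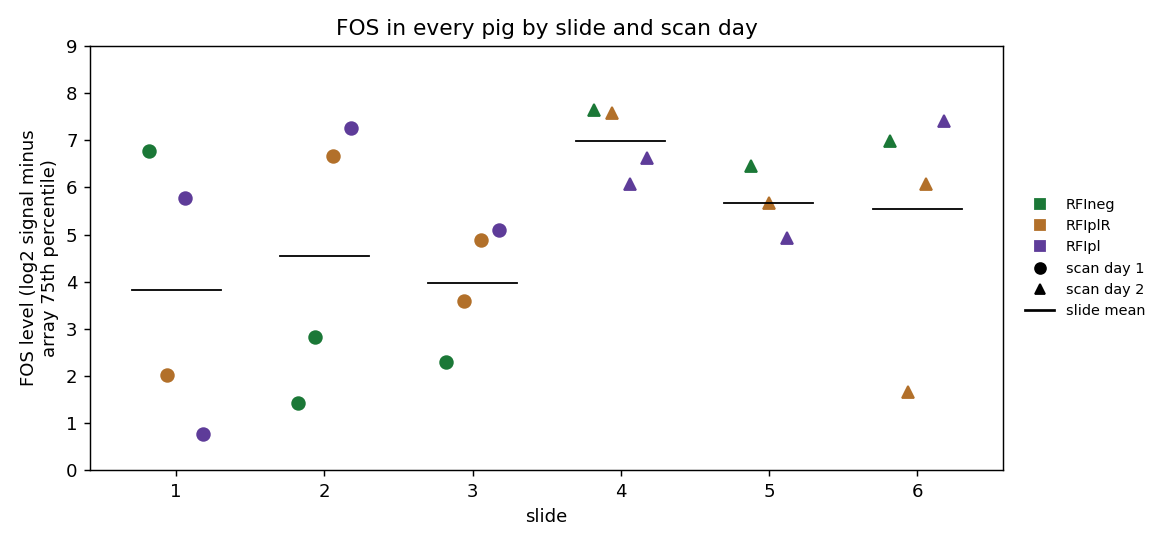
FOS level in every pig (y axis, log2 scale with each array's 75th percentile at 0) by slide (x axis), coloured by group, with circles for scan day 1 and triangles for scan day 2. Lines are slide means, which run from 3.83 on slide 1 to 6.98 on slide 4, and each slide holds pigs of all 3 groups.

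The ordered FOS levels left a gap of 1.28 between 3.60 and 4.87, against a next widest gap of 0.76, with 7 pigs below it and 16 above. The 7 were 3 RFIneg, 3 RFIplR and 1 RFIpl pigs, 6 of them scanned on the first day, on 4 slides. Relations with FOS are therefore given on each side of the gap, as levels, with permutation p adjusted over 12 relations. JUN followed FOS among the 16 pigs above the gap at Pearson's r = 0.83 (adjusted p = 0.0006, permutation test) and Spearman's rho = 0.84 (adjusted p = 0.00204, permutation test), and r was 0.88 without the 2 pigs farthest from the median of FOS. Among the 7 below it r was 0.66 and rho 0.57 (adjusted p = 0.262 and 0.454, exact permutation test), and r was 0.065 without the 2 farthest.

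For the other genes the tests on either side of the gap did not pass, which does not show that they are unrelated to FOS, since each side holds few pigs over a narrower range of FOS. Among the 16 pigs above the gap r was 0.37 for KLF4, 0.36 for KLF2, 0.22 for MYC, 0.21 for NR4A3 and -0.17 for GADD45G. Among the 7 below it r was 0.65 for KLF4, 0.59 for KLF2, 0.59 for MYC, 0.68 for NR4A3 and -0.41 for GADD45G. Spearman's coefficient ran from -0.05 to 0.39 above the gap and from -0.29 to 0.71 below it, and the lowest adjusted p of these 10 relations was 0.262 for r and 0.454 for rho (permutation tests, exact below the gap). Over all 23 pigs 5 of the 6 pairs with FOS passed, all but that with GADD45G (highest adjusted p of the 5 0.0452, permutation), but those relations also hold the distance between the pigs below and above the gap, so no r is given for them.

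Among the other 6 genes the deviations from the group means were compared over all 23 pigs, with permutation p (100000 permutations within groups, two-sided) adjusted over all 21 pairs of genes. Of the 15 pairs without FOS 8 passed by both Pearson's r and Spearman's rho. KLF2 and KLF4, which sit on different chromosomes, had r = 0.95 and rho = 0.90, with adjusted p of 0.000105 and 7e-05 from the smallest p the permutations can give, 1e-05. Their r was 0.96 on the first scan day, 0.93 on the second, and 0.94 without the 2 pigs farthest from the median of KLF2. JUN and NR4A3 had r = 0.83 and rho = 0.84 (permutation, adjusted p = 0.00014 and 7e-05). Their r was 0.91 on the first day, 0.62 on the second and 0.76 without the 2 farthest pigs.

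MYC followed NR4A3 and JUN. With NR4A3 it had r = 0.72 and rho = 0.73 (permutation, adjusted p = 0.000455 and 0.00109), with r = 0.71 on the first day, 0.61 on the second and 0.66 without the 2 farthest pigs. With JUN it had r = 0.66 and rho = 0.68 (permutation, adjusted p = 0.00256 and 0.00187), with r = 0.56 on the first day, 0.57 on the second and 0.61 without the 2 farthest pigs. With KLF2 and KLF4 it had r = 0.36 and 0.41 and rho = 0.31 and 0.38, which did not pass (adjusted p from 0.105 to 0.219, permutation).

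The relations that join the KLF genes to JUN and NR4A3 had a lower r among the 11 pigs of the second day than among the 12 of the first, a difference that was not tested. JUN had r = 0.75 with KLF4 and 0.72 with KLF2 (rho = 0.70 for both, permutation adjusted p from 0.00054 to 0.00191). Within the first day r was 0.96 and 0.97, and within the second it was 0.40 and 0.30. NR4A3 had r = 0.60 with KLF4 and 0.59 with KLF2 (rho = 0.63 for both, permutation adjusted p from 0.0054 to 0.0105). Within the first day r was 0.89 and 0.90, and within the second it was 0.21 and 0.13. Without the 2 farthest pigs these 4 r were between 0.44 and 0.68. With slide means removed, JUN had r = 0.72 with KLF4 and 0.67 with KLF2, and NR4A3 had 0.61 and 0.55.

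The ordered JUN levels also left a gap, of 0.42 against a next widest of 0.27, with 7 pigs below it and 16 above, and 6 of these 7 were below the FOS gap too. The relations of JUN over 23 pigs therefore also hold the distance between those sets of pigs. Among the 16 pigs above the JUN gap the r of levels with JUN was 0.36 for NR4A3, 0.50 for MYC, -0.038 for KLF2 and -0.069 for KLF4, and none passed when adjusted over 10 relations (lowest adjusted p = 0.117 for r and 0.173 for rho, permutation). Among the 7 below it r was 0.93 for NR4A3 and 0.95 for MYC (adjusted p = 0.00794 for both, exact permutation test), 0.82 for KLF2 (adjusted p = 0.0615, exact) and 0.61 for KLF4 (adjusted p = 0.288, exact). Spearman's coefficient below the gap was 0.96 for NR4A3, 0.93 for MYC and 0.89 for KLF2 (adjusted p = 0.0278, 0.0337 and 0.0410, exact permutation test). Without the 2 pigs farthest from the median of JUN r below the gap was 0.88, 0.90 and 0.50 for these 3 genes. This split was added after the levels were seen.

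GADD45G had no pair that passed (lowest adjusted p = 0.124, permutation), as MYC had none with the KLF genes. The r of GADD45G with the 5 genes other than FOS ran from -0.35 to 0.36 and its rho from -0.39 to 0.13. With MYC its r was 0.74 on the second scan day and 0.28 on the first, and 0.050 over both days without the 2 farthest pigs. With NR4A3 its r was 0.65 on the second day and -0.0046 on the first, and with JUN 0.40 and -0.28. With KLF2 its r was -0.47 on the second day and -0.20 on the first, and with KLF4 -0.49 and -0.16. These r within a day were not tested.

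**Figure D5:**
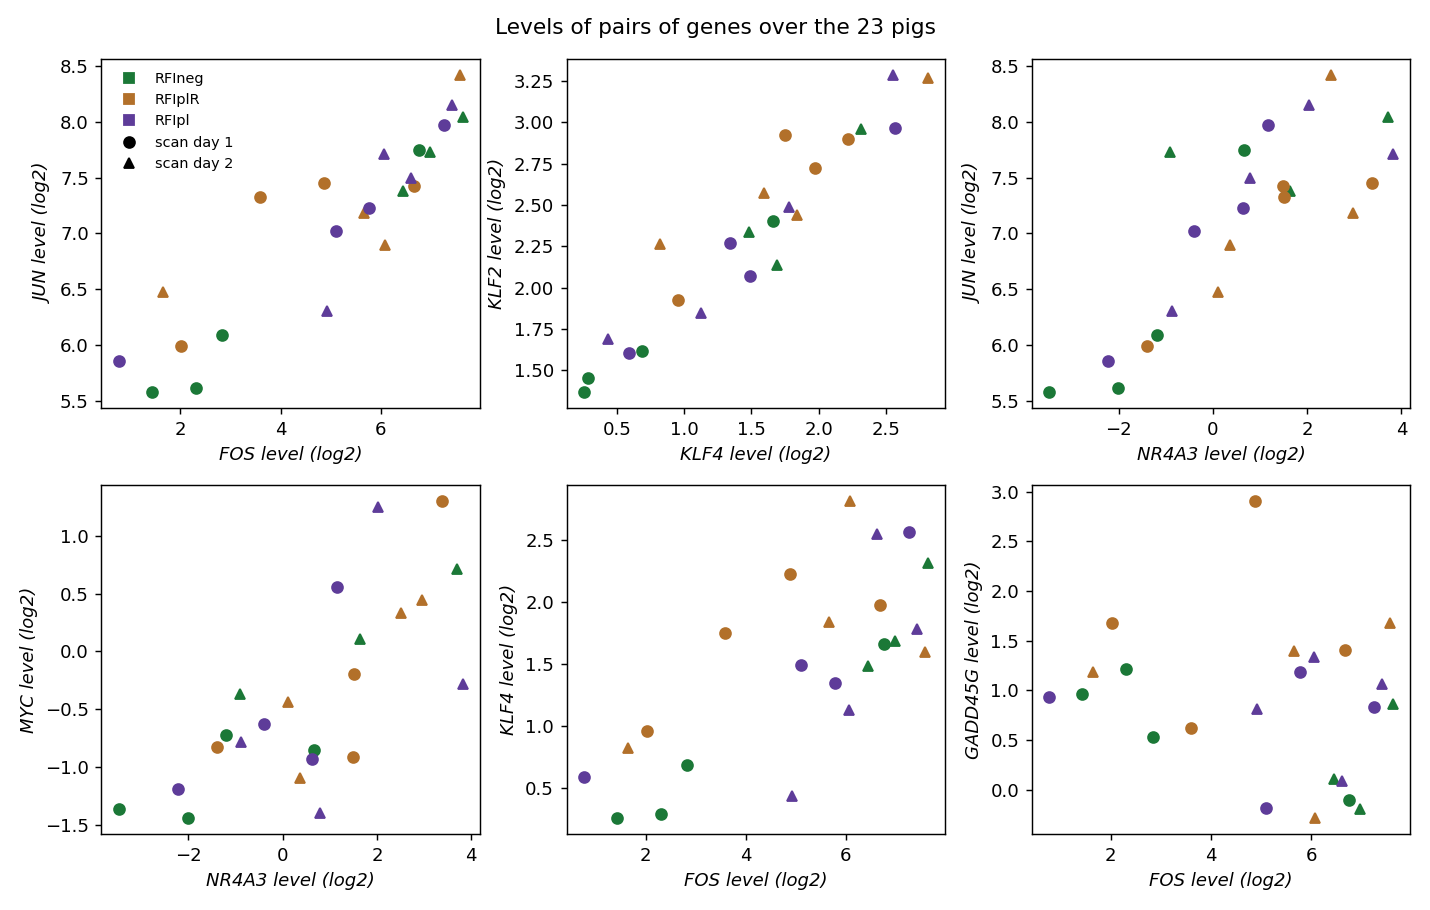
Levels of pairs of genes (both axes, log2 scale with each array's 75th percentile at 0), 1 point per pig, coloured by group, with circles for scan day 1 and triangles for scan day 2. JUN rises with FOS among the 16 pigs with FOS above 4.87, KLF2 rises with KLF4 in both scan days, and GADD45G shows no trend with FOS.

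Among 3119 other named genes the 4 whose deviations were most like those of FOS were SLC5A1, CYR61, NR4A2 and BTG2. On the 16 arrays above the FOS gap SLC5A1, a sodium-glucose transporter, had r = 0.93, but among the 7 below r was 0.013. Over all pigs the r of deviations was 0.94 for this probe and only 0.46 for another kept SLC5A1 probe. Both probes were dim, with mean levels of -2.94 and -3.24. BTG2, an antiproliferative early response gene, had r = 0.66 above the gap and 0.83 below it. NR4A2, the close relative of NR4A3, had r = 0.55 above and 0.98 below, and CYR61, a secreted matrix protein, had 0.54 and 0.52. The order is that of r over all 23 pigs and comes with no test. The same measure could not be had for EGR1, whose probe was not kept.

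Other genes of the early response were followed through lists. Of 9 AP-1 and ATF family genes 1 was measured, of 9 EGR, KLF and NR4A relatives 6, of 34 feedback and other early response genes 13, and of 22 upstream kinases and factors 5. In each of the 3 comparisons 0 of these 25 genes passed the threshold in either direction, against 0.122%, 0.0036% and 0.162% of all kept probes in the order RFIneg minus RFIpl, RFIplR minus RFIpl and RFIneg minus RFIplR. For RFIneg minus RFIplR the median difference was -0.27 in the feedback list, with 1 of 13 genes above 0, -0.22 in the EGR, KLF and NR4A relatives, with 0 of 6 above 0, and 0.12 in the upstream list, with 4 of 5 above 0. For RFIneg minus RFIpl it was -0.15 in the feedback list (3 of 13 above 0), -0.026 in the relatives (3 of 6) and 0.011 in the upstream list (3 of 5). For RFIplR minus RFIpl it was 0.088 in the feedback list (9 of 13 above 0), 0.23 in the relatives (5 of 6) and -0.035 in the upstream list (2 of 5). The medians over all 3126 named genes were 0.012, 0.024 and 0.020 in the order of these sentences. Genes of a list share pigs, and BTG2, CYR61 and NR4A2 were all among the genes most like FOS. The counts above 0 are therefore a description.

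The genes of each list with the smallest F p were the following, each with its largest difference among the comparisons. MAPK12, the p38 gamma kinase of skeletal muscle, averaged 0.57 ± 0.12 (SE) higher in RFIneg than in RFIpl pigs, with an adjusted p of 0.074, and 0.37 ± 0.12 (SE) higher in RFIplR than in RFIpl pigs, with an adjusted p of 0.252. CREB1, the cAMP-responsive factor that acts on FOS, differed by -0.38 ± 0.13 (SE) between RFIplR and RFIpl pigs (adjusted p = 0.285), and MAP2K1, the kinase of ERK, by -0.29 ± 0.14 (SE) between RFIneg and RFIplR pigs (adjusted p = 0.476). NFIL3, a bZIP repressor, differed by -1.50 ± 0.54 (SE) between RFIneg and RFIplR pigs (adjusted p = 0.334), and MCL1, a survival factor, by -0.36 ± 0.17 (SE) (adjusted p = 0.472). BTG1, an antiproliferative factor, differed by 0.41 ± 0.18 (SE) between RFIneg and RFIpl pigs (adjusted p = 0.380). KLF15 (0.33 ± 0.19) and KLF9 (0.22 ± 0.13, both SE) differed between RFIplR and RFIpl pigs with adjusted p of 0.590 or more. KLF6 differed by -0.42 ± 0.25 (SE) between RFIneg and RFIpl pigs (adjusted p = 0.570). ATF4, the measured gene of the AP-1 and ATF list, differed by 0.078 ± 0.12 (SE) in RFIneg against RFIpl pigs, by 0.077 in RFIplR against RFIpl pigs and by 0.00042 in RFIneg against RFIplR pigs.

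In whole muscle, fewer cells of a type and less RNA per cell cannot be told apart. The 8 measured of 9 skeletal muscle fibre markers were among the brighter probes, with a mean per pig from 9.38 to 9.64 in RFIneg pigs, from 9.15 to 9.72 in RFIplR pigs and from 9.16 to 9.62 in RFIpl pigs. Of 10 leukocyte markers 7 were measured, with means from -1.78 to -0.99 in RFIneg pigs, from -1.94 to -0.43 in RFIplR pigs and from -1.49 to -0.45 in RFIpl pigs. Of 8 endothelial markers 4 were measured, with means from 1.31 to 1.72, from 1.15 to 1.86 and from 1.40 to 2.24 in RFIneg, RFIplR and RFIpl pigs. Of 6 adipocyte markers 5 were measured, with means from 0.86 to 2.31 in RFIneg pigs, from 0.82 to 2.75 in RFIplR pigs and from 0.22 to 3.58 in RFIpl pigs. Of 5 smooth muscle and pericyte markers 2 were measured, with means from 5.52 to 5.88 in RFIneg pigs, from 5.37 to 5.94 in RFIplR pigs and from 5.65 to 6.08 in RFIpl pigs. These were ACTA2 and RGS5, at mean levels of 9.68 and 1.73, so the list mean is the level of neither. RFIneg minus RFIpl was 0.20 for ACTA2 and -0.39 for RGS5, and neither passed the threshold. Of 5 erythroid markers 0 had a kept probe. For RFIneg minus RFIpl the difference was above 0 in 8 of 8 fibre markers (median 0.15) and 1 of 7 leukocyte markers (-0.36). It was above 0 in 1 of 4 endothelial markers (-0.18) and 0 of 5 adipocyte markers (-0.72). RFIneg minus RFIplR gave 8 of 8 (0.11), 2 of 7 (-0.12), 2 of 4 (-0.014) and 1 of 5 (-0.57) in the same order. None of these genes passed the threshold. Markers of a list share pigs, so the counts are a description.

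The mean of the fibroblast markers moved against NR4A3. That list had 2 of 6 genes measured, COL1A2 and DCN, with means from 3.54 to 4.21 in RFIneg pigs, from 3.15 to 4.29 in RFIplR pigs and from 3.14 to 4.17 in RFIpl pigs. NR4A3 had r = -0.73 and rho = -0.75 with it over 23 pigs (adjusted p = 0.00588 and 0.00784 over 49 relations, permutation), r was -0.72 without the 2 pigs farthest from the median of the marker mean, and it was -0.48 on the first scan day and -0.78 on the second. With JUN and MYC r was -0.58 and -0.61 (adjusted p = 0.0683 for both) and rho -0.69 and -0.66 (adjusted p = 0.0149 and 0.0294, permutation), with r = -0.57 and -0.30 on the first scan day and -0.55 and -0.70 on the second. The other genes had no relation with this list that passed. Their r was -0.44 for FOS, -0.38 for GADD45G, -0.10 for KLF4 and -0.074 for KLF2. Without the 2 farthest pigs these r were -0.68, -0.025, -0.49 and -0.46 in the same order. For FOS r was -0.52 on the first scan day and -0.20 on the second. For GADD45G it was -0.017 on the first and -0.89 on the second. For KLF4 and KLF2 r was -0.62 on the first scan day, and 0.32 and 0.40 on the second. The other marker lists and the percent of probes well above background on the array had no relation that passed, with r from -0.31 to 0.39 over 23 pigs. Within a scan day some r were larger. With the skeletal muscle fibre markers r on the second day ran from 0.068 for GADD45G to 0.84 for JUN and 0.86 for FOS. On the first day it ran from -0.62 for GADD45G to 0.36 for KLF2, with 0.20 for FOS and 0.27 for JUN. The r within a day were not tested. The part of these cells in the levels of the immediate early genes was not tested.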

How the data were processed

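Total RNA of 23 pigs was labelled with Cy3 and hybridised to 1 single-colour array each, per the labels' protocols. The spot intensity values, the processed signals of Feature Extraction 10.7.3.1 per the file headers, were background-subtracted and not scaled between arrays. R 2.10.0 stands in the submitters' processing notes. A deposited table of log2 values for 26316 probes served as an alternative only. On each array its values correlated with the log2 processed signal at 0.99997 or more, and its centring rule and probe choice are not given in the sources used here. The mean and local background intensity of each spot, per the file headers, entered the normexp alternatives only.

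Log2 was taken of the processed signal at 43803 non-control spots, less the 75th percentile of each array over them. Spots with an outlier flag were set to missing (484 values) and spots of 1 probe averaged. The filter left 27797 of 43603 probes, each called well above background on 6 or more arrays in some group. Between 41.6 and 79.0% of probes were well above background on an array, and precision is limited by how many arrays there are. All 6 slides held all 3 groups. One limma model (version 3.58.1, R 4.3.3) took in all 3 groups, with Benjamini-Hochberg adjustment over all kept probes, a threshold of 0.05 and 95% intervals. Probes were named through RefSeq accessions and symbols, and 9565 probes had a symbol. The fit and the permutation tests were tested on simulated data.

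All members, with every probe, are named. Of each list of early response genes the 3 genes with the smallest F p are named, and of the 5 genes most like FOS the first 4, since 1 is not reported here. Members and lists were chosen with earlier results of these data known. Alternatives were other centrings, background corrections, filters, blocks and weights, and each pig left out. The relations on each side of the FOS gap, the interaction with scan day and the marker relations were added after the data were seen. The replicate numbers were not taken as a pairing in the main tests, since the labels state none. The labels give each array its own pig. Promoter and protein sequences were not used here.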

Additional observations from a re-analysis of the deposited data

Results flagged for a closer look

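One level stood far from the others of its group. FOS in RFIpl replicate 4 was 0.77, the lowest of the 8 RFIpl pigs, whose median was 5.92. Its gap to the next level was 0.625 of the range of the group, past Dixon's 95% critical value. It was the only level past that value among 21 groups of 7 or 8 pigs examined, where chance gives about 1 in 20. Without it FOS differed by -1.25 between RFIneg and RFIpl and by -1.40 between RFIplR and RFIpl, on the log2 scale. RFIpl replicate 4 was the 1 RFIpl pig below the FOS gap, where 3 RFIneg and 3 RFIplR pigs also lay. Dixon's value assumes normally distributed levels, so it cannot tell a stray level from the low side of such a gap.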

How the results depend on the processing

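No member probe passed the threshold under the 17 other settings in which calls were made for all member probes, or with any of 23 pigs left out. No gene difference passed in 861 tests, made under 18 settings and with each pig left out (lowest adjusted p 0.168), and 13 to 15 of the 21 gene pairs passed under the 4 settings run for them. The counts of called probes over the whole array moved more, given here for RFIneg against RFIpl, RFIplR against RFIpl, RFIneg against RFIplR and the F test (34, 1, 45 and 38 as reported). They were 0, 0, 0 and 0 with normexp, 0, 0, 9 and 0 with normexp on the negative controls, 22, 0, 18 and 22 with no filter, 19, 0, 25 and 29 with slide as a fixed block, 50, 2, 98 and 138 with slide as a random block, 18, 0, 15 and 20 without the arrays of slide 3, 52, 0, 76 and 92 with trend and robust variance, and 107, 1, 98 and 165 with array weights. They were 23, 0, 23 and 29 with median centring, 20, 1, 21 and 28 with the deposited values, 18, 1, 60 and 67 with probes well above background on all arrays, 29, 3, 35 and 41 with scan day as a block, 1, 0, 1 and 1 within each scan day, and 38, 0 and 25 with only the 2 groups compared. With the replicate number as a block they were 28, 0, 20 and 19. The deviations of same-numbered pigs had r from -0.30 to 0.33 over 22 pairs, 7 of them over 0.1. Such r cannot decide whether the numbers pair the pigs, and the labels state no pairing. Leaving out 1 pig gave 22 to 40, 0 to 7, 18 to 68 and 24 to 70. The highest were without RFIneg replicate 4 (40), RFIplR replicate 3 (7) and RFIplR replicate 1 (68 and 70), the lowest without RFIpl replicate 2 (22) and RFIneg replicate 1 (0, 18 and 24).

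The sign of 14 of the 21 gene differences turned somewhere. In RFIneg minus RFIplR, FOS was -0.96 on scan day 1 and -0.11 with array weights, and JUN was 0.34 with normexp, 0.29 with normexp on the negative controls, 0.48 on scan day 2 and 0.031 without slide 3. In the same comparison KLF4 was 0.062 and MYC 0.34 on scan day 2, and MYC was 0.000335 without slide 3. In RFIneg minus RFIpl on scan day 2, FOS was 0.77, JUN 0.30, NR4A3 0.039, KLF2 0.15, KLF4 0.35 and MYC 0.45. In RFIplR minus RFIpl, KLF2 was -0.38 and KLF4 -0.35 with normexp, JUN was 0.028 on scan day 1, and MYC was -0.018 without slide 3 and -0.072 with array weights. With 1 pig left out, FOS ran from -1.25 to 0.00835 in RFIneg minus RFIpl (above 0 without RFIneg replicate 1) and from -0.31 to 0.73 in RFIneg minus RFIplR (below 0 without RFIneg replicate 2, 3, 4 or 6, or RFIplR replicate 1, 4 or 6). JUN ran from -0.27 to 0.092 in RFIplR minus RFIpl (above 0 without RFIpl replicate 6 or 7, or RFIplR replicate 1 or 4), and MYC from -0.35 to 0.10 in RFIneg minus RFIpl (above 0 without RFIneg replicate 7, or RFIpl replicate 6 or 7). The cause of these moves was not tested. Signal over background limits EGR1 and ATF3, which were left untested.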

Other observations

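Outside FOS, the genes most like each member over the 23 pigs, by r of deviations from the group means and with no test, were partly other early response genes. JUN was most like BTG2 (r = 0.92) and CYR61 (0.86). KLF2 and KLF4 were both most like RHOB (0.85 and 0.84), a small GTPase, and both had DNAJB1 (0.81 and 0.83), a heat shock co-chaperone, among their 5. NR4A3 was most like NFATC1 (0.86), a calcium-responsive factor, and ADCY4 (0.86), an adenylyl cyclase. MYC was most like XIRP1 (0.94), an actin-binding protein of striated muscle, ITIH4 (0.90) and BAG3 (0.88), a chaperone partner. GADD45G was most like IFNAR1 (0.72), P4HA1 (0.69) and NFKBIA (0.64), and its list held FKBP5 (0.64) and PDK4 (0.63). With slide means also removed, these r lay between 0.64 and 0.95.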
